A study of Mus musculus with 47 samples.

Results

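The expressed genes of mouse chromosome 16 were followed along the chromosome in B78-D14 melanoma cells and in tumors grown from them. A gene was a member if it lies on chromosome 16 of GRCm39 in the GENCODE annotation and had a mean of at least 1 CPM (reads of the gene relative to library size) over the 8 cultures of cells compared here. Of the 1626 chromosome 16 genes in the table, 365 were chosen by this rule, out of 11465 genes of the whole table that reached the same level. They comprised 341 protein-coding genes, 14 lncRNA genes and 10 annotated as pseudogenes. Just inside the threshold lay *Vgll3* at 1.06 CPM and *2610020C07Rik* at 1.04 CPM, and just outside it *Ndufs5-ps* at 0.976 CPM and *Gm6278* at 0.886 CPM. Membership used the mean level over both groups of cells and no difference between them. The chromosome itself was picked because a small fall of its genes had already been seen in these data, so the size of that fall in cells is given as a description, and no test was run on a score over the members.

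B78-D14 is an amelanotic line derived from the mouse B16 melanoma and lacks *Cdkn2a*, and all groups share this background. The study installed truncating G>A changes in the mitochondrial gene *Mt-Nd5*, a subunit of respiratory complex I, with DdCBE base editors (paired TALE proteins carrying a split cytosine deaminase), transfected once or several times. In cells, 4 cultures bearing m.11,944G>A at a heteroplasmy of 60%, written m.11,944 60%, were compared with 4 control (wild-type) cultures, all untreated. In tumors, which were fragments of untreated subcutaneous allografts, 7 with m.12,436G>A at 60%, 7 with the same change at 40% and 4 of unedited origin (control) were compared, and the hosts of the study's grafts were male mice, C57BL/6 where immunocompetent, for which the sources used here give differing ages. Each genotype is 1 edited population, so a trait of that population and an effect of the mutation cannot be told apart. Nothing in the labels says whether the cultures of a group were grown separately, so p values measure the spread between these samples, which may be technical.

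Total counts lay between 16475735 and 36173502 per library, and the 365 members held between 2.01% and 2.52% of a library's counts. Of the melanocyte markers, only *Mitf* was at 1 CPM or more in the cells, and *Tyr* had no count in any culture. Same-numbered cultures of both groups deviated together across genes, and in 3 of 4 pairs the correlation was best within the number. The numbers are therefore treated as pairs. In both groups cultures 1 and 2 also differed from cultures 3 and 4, as shown for *Ets2* below. Whether the numbers mark separate pairs or only this split was not tested. The cells are therefore given both without the pairing and with the replicate number as a block.

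A chromosome is transcribed gene by gene, each gene under its own promoter and enhancers, so neighbors on a chromosome usually share no function. A shift shared by genes along a whole chromosome or an arm is the pattern known for changes of chromosome number in tumor lines, whereas a shift of neighbors within a few megabases is the pattern known for focal gains, losses or shared regulatory domains. Mouse chromosome 16 is acrocentric, with its centromere at the low end of the coordinates, and its distal end is the segment whose orthologs lie on human chromosome 21.

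The promoters of 4 members are shown because the genes lie far apart, near the centromeric end (*Usp7*), further in (*Hes1*, then *Naa50*) and near the distal end (*Slc5a3*), and were all lower in m.11,944 60% cells. Each is the 250 bases of GRCm39 before the start of the gene's canonical GENCODE transcript, read 5′ to 3′ on the gene's strand. Capitals mark GC boxes (GGGCGG or CCGCCC) and CCAAT boxes (CCAAT or ATTGG), searched on both strands with overlapping matches allowed.
Usp7, chr16:8556207-8556456, - strand: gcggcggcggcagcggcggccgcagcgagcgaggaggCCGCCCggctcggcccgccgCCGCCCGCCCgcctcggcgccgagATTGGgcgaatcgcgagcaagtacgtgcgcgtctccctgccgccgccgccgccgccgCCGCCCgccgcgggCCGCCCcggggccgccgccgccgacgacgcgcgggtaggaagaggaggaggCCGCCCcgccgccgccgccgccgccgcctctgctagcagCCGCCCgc
Hes1, chr16:29883877-29884126, + strand: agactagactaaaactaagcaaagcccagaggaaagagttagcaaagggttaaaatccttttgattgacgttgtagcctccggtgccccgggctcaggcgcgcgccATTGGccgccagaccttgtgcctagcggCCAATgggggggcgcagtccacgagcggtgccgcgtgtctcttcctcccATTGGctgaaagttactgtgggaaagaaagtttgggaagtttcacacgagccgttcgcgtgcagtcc
Naa50, chr16:43959263-43959512, + strand: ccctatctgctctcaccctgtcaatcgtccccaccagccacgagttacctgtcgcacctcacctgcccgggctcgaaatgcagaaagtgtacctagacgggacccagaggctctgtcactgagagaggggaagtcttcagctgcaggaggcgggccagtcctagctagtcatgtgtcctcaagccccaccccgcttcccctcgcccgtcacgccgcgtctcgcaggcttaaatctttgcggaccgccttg
Slc5a3, chr16:91854715-91854964, + strand: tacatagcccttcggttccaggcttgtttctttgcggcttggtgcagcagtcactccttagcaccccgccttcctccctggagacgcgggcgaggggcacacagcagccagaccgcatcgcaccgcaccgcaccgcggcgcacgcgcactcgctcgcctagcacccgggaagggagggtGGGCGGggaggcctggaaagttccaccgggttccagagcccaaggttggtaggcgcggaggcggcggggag

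These 4 promoters have little in common. *Usp7*, which encodes a deubiquitinase of Mdm2 and p53, has 7 GC boxes and 1 CCAAT box at 85.2% GC. *Hes1*, which encodes a repressor induced by Notch signaling, has 3 CCAAT boxes and no GC box at 56.4% GC. *Naa50*, which encodes a protein N-terminal acetyltransferase, has neither, and *Slc5a3*, which encodes the sodium/myo-inositol cotransporter, has 1 GC box. Over all members the promoters matched those of the other chromosomes in these features. A GC box stood in 50.7% of the 365 member promoters and in 50.2% of the 11065 promoters of expressed genes on other chromosomes, a CCAAT box in 35.6% and 36.7%, and an E-box (CACGTG, the same on both strands) in 7.40% and 7.93%. Median promoter GC was 57.6% and 56.8%. Within the members, those with a GC box had a median log2 fold change of −0.12 in m.11,944 60% cells with the replicate block and those without one −0.14, with and without a CCAAT box the medians were −0.12 and −0.13, and with and without an E-box, which 27 members had, −0.16 and −0.12.

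Members were lower in m.11,944 60% cells than in control cells along the whole chromosome. The shift of a culture is the median, over members, of its log2 CPM minus the mean of the control cultures, minus the same median over expressed genes of the other chromosomes. It was −0.13, −0.12, −0.13 and −0.15 in m.11,944 60% cultures 1 to 4 and −0.011, −0.018, 0.043 and −0.015 in control cultures 1 to 4. All 4 edited cultures lay below all 4 controls. The mean was −0.13 ± 0.013 (SD, n = 4) against −0.00029 ± 0.029 (SD, n = 4). Taken within pairs of same-numbered cultures, the chromosome was lower by 0.13, 0.14, 0.17 and 0.13 on the log2 scale in pairs 1 to 4, a mean difference of −0.14 ± 0.022 (SD, n = 4), or −9.49% in linear terms. Members took between 2.18% and 2.24% of all counts in m.11,944 60% cultures and between 2.34% and 2.52% in control cultures, again without overlap.

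The fall was present in each of the 10 windows of 10 Mb into which the chromosome was divided by gene start. In every window all 4 pairs were below 0. Without the pairing the groups overlapped in most windows. All 4 edited cultures lay below all 4 controls only in windows 3, 4 and 9. In window 2 the shifts ran from −0.15 to 0.0013 in edited cultures and from −0.16 to 0.11 in controls. Window 1 (38 members, nearest the centromere) was lower by 0.12, 0.17, 0.21 and 0.14 in pairs 1 to 4, and window 10 (46 members, the distal end) by 0.10, 0.13, 0.23 and 0.12, so the fall was present at both ends. Window 2, the richest with 86 members, fell least, by 0.093 ± 0.022 (SD, n = 4 pairs). Window 4, with 67 members, fell by 0.14 ± 0.014 (SD, n = 4). Windows 7 and 8, which hold only 9 and 8 members, had the largest mean differences, −0.25 ± 0.098 and −0.21 ± 0.11 (SD, n = 4), and the widest spread over pairs. The other windows lay between −0.14 and −0.19 in the mean of the pairs.

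**Figure D1:**
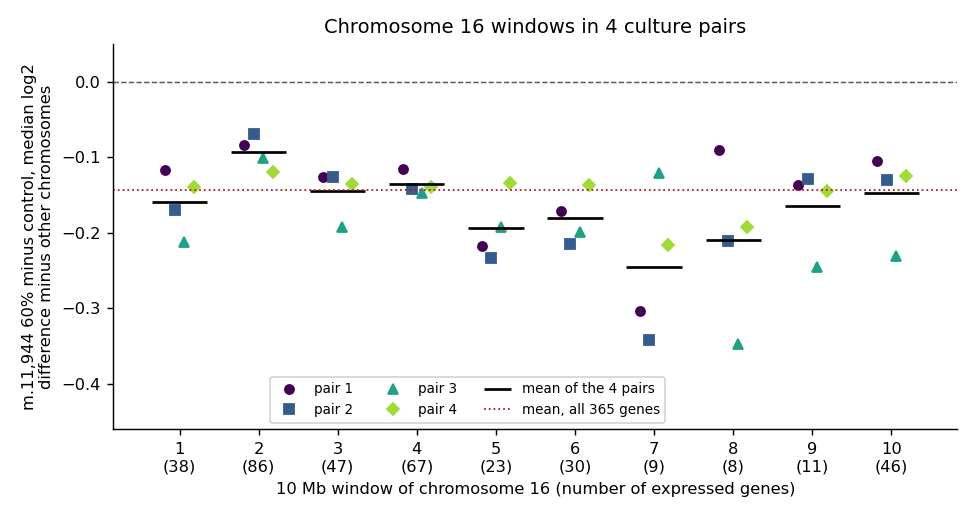
Difference between same-numbered m.11,944 60% and control cultures in each 10 Mb window of chromosome 16, as the median log2 difference of the window's expressed genes minus that of the other chromosomes; symbols are the 4 pairs, black bars their mean and the dotted line the mean over all 365 genes (−0.14). All 40 points lie below 0, and windows 7 and 8, with 9 and 8 genes, scatter most.

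The gene-wise fits also gave a fall in every window, though of uneven size. In edgeR's fit with the replicate block, the window medians of log2 fold change, less the median of the other chromosomes, ran from −0.10 in window 2 to −0.21 in window 8, and without the block from −0.11 to −0.20. Across members, which are not independent replicates, the log2 fold change had a Spearman's rho of −0.14 and a Pearson's r of −0.11 with the start position (n = 365), so position along the chromosome accounts for little of the spread between genes. With 5 Mb windows the medians still all lay below 0, from −0.30 to −0.07, and with 20 Mb windows from −0.19 to −0.12. With means in place of medians the 10 Mb windows all lay below 0, from −0.37 to −0.078. Of the 257 windows of the other chromosomes with at least 5 expressed genes, 13 (5.06%) were at or below the highest chromosome 16 window in the blocked fit, 4 of them among the 13 windows of chromosome 8.

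Chromosome 16 had the lowest median of the 20 chromosomes. The blocked fit gave −0.13 for its members and 0.0066 for the others, a difference of −0.14, and the fit without the block −0.15 and −0.0025. Chromosome 8, with 646 expressed genes, was next at −0.095 in the blocked fit, with its 4 pairs between −0.11 and −0.090. Chromosome 17 stood at the other end at 0.068, with its pairs between 0.054 and 0.095. Each of these 3 medians lay further from 0 than the spread over its 4 pairs, and the pairs of chromosome 16 (−0.17 to −0.13) did not overlap those of chromosome 8.

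**Figure D2:**
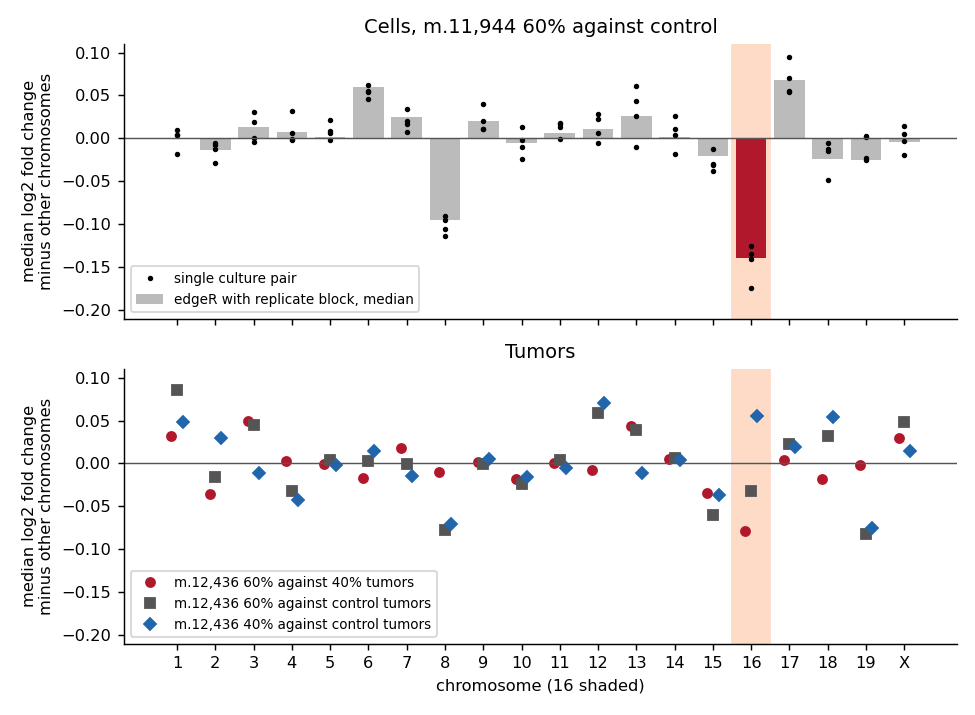
Median log2 fold change of the expressed genes of each chromosome minus that of all other chromosomes; upper panel, m.11,944 60% against control cells (bars, edgeR with replicate block; dots, the 4 culture pairs); lower panel, the 3 tumor comparisons, which share tumors. Chromosome 16 (shaded) is lowest in the cells at −0.14 and in m.12,436 60% against 40% tumors at −0.079, and above 0 in m.12,436 40% against control tumors at 0.055.

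The shift was spread over the members and was not made by a few large falls. In the blocked fit 281 of 365 members (77.0%) had a negative log2 fold change, and 161 (44.1%) were lower in all 4 pairs, beside 14.7% of the 12930 genes tested; 11 (3.01%) were higher in all 4 pairs, beside 14%. The 10th, 25th, 75th and 90th percentiles of the members were −0.34, −0.23, −0.0078 and 0.12, and those of the other chromosomes −0.22, −0.10, 0.14 and 0.29, so each lay lower by 0.12 to 0.16. Members with low, middle and high levels (3 classes of equal size over all expressed genes, divided at 16.5 and 58.02 CPM) were lower than other genes of the same class by 0.11, 0.14 and 0.14. The 3 classes by exonic GC content gave differences of −0.16, −0.12 and −0.13, and those by exonic length −0.12, −0.16 and −0.14, so genes of each kind took part.

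**Figure D3:**
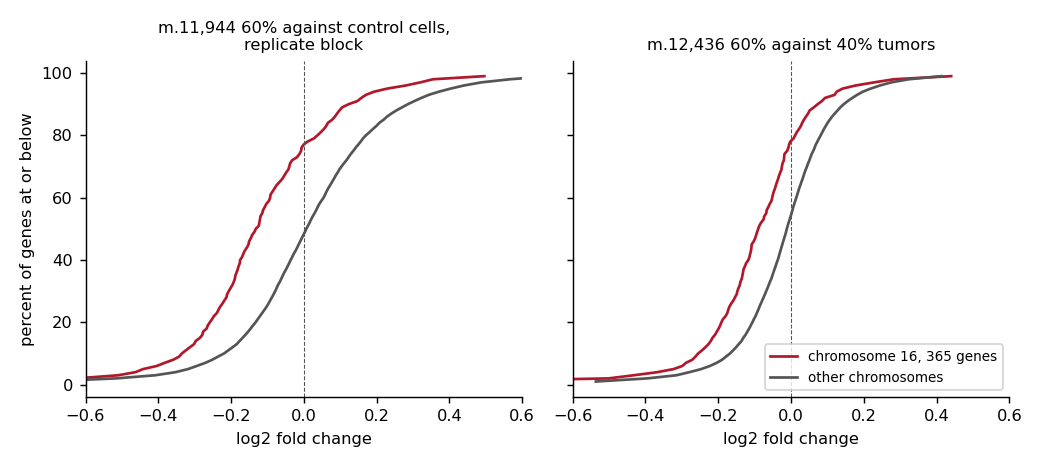
Cumulative distribution of log2 fold changes (x axis, 1st to 99th percentile; y axis, percent of genes at or below) for the 365 chromosome 16 genes and for expressed genes of the other chromosomes. The chromosome 16 curve lies left of the other over nearly its whole length, in m.11,944 60% against control cells (medians −0.13 and 0.0066) and less so in m.12,436 60% against 40% tumors (−0.09 and −0.012).

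Gene by gene, calls depended on the pairing. Without the block, edgeR's quasi-likelihood test with Benjamini-Hochberg adjustment over all 12930 genes called none of the members at an adjusted p under 0.1, where 0.0309% of all genes were called lower and 0.00773% higher; at an unadjusted p under 0.05 there were 30 members lower and 0 higher, where 532 of the 12930 genes were under it, and DESeq2 called 7 members, all lower, among 84 genes. With the block, 62 members (16.99%) were called lower and 2 (0.548%) higher, against 4.09% and 3.02% of all genes tested. The 62 lay in all 10 windows, with 9 or 10 in each of windows 2, 3 and 4, 7 in window 10 and 2 to 8 in each of the others. Leaving out 1 pair moved the number of called members from 64 to 7 without pair 1, 6 without pair 2, 42 without pair 3 and 86 without pair 4; the medians stayed between −0.14 and −0.12. *Il1rap*, *Hes1*, *Alcam*, *Cxadr*, *Mrps6* and *Slc5a3* were called in all 4 of these fits and *Ppl* in none.

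The genes described next were chosen for the smallest p of their windows, so their falls are no separate evidence of the shift. Near the centromeric end, *Usp7* (chromosome 16, 8506590 to 8610241) was at 173, 160, 207 and 196 CPM in m.11,944 60% cultures 1 to 4 and at 198, 203, 264 and 217 CPM in the controls. Each edited culture was below the control of its own number, although the groups overlap, with a log2 fold change of −0.26 (SE 0.065, adjusted p = 0.0687 from edgeR's test with the block). *Ube2l3* (16969877 to 17020513), a ubiquitin-conjugating enzyme, was at 224, 201, 246 and 233 CPM against 288, 269, 290 and 270 CPM, without overlap (−0.31, SE 0.064, adjusted p = 0.0426).

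*Il1rap* (26400350 to 26548880), the coreceptor for interleukin-1 family receptors, was at 25.2, 21.9, 21.6 and 22.0 CPM in m.11,944 60% cultures and at 34.5, 33.9, 37.8 and 33.5 CPM in controls. The groups were far apart, with a log2 fold change of −0.63 (SE 0.083, adjusted p = 0.00756 from edgeR's test with the block). *Kpna1* (35799120 to 35859478), an importin alpha of nuclear import, was at 60.2, 53.7, 62.5 and 61.0 CPM against 83.1, 79.3, 87.8 and 70.0 CPM, again without overlap (−0.43, SE 0.077, adjusted p = 0.0261).

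Nearer the middle of the chromosome, *Naa50* (43959513 to 43983885) was at 382, 345, 316 and 292 CPM in edited cultures and at 455, 438, 426 and 351 CPM in controls. Each pair was lower in the edited culture although the groups overlap (−0.32, SE 0.063, adjusted p = 0.0347 from edgeR's test with the block). *Alcam* (52069359 to 52274437), a cell adhesion molecule, was at 55.3, 53.4, 51.9 and 43.2 CPM against 81.7, 91.5, 81.7 and 60.5 CPM. These groups did not overlap, and the log2 fold change was −0.62 (SE 0.072, adjusted p = 0.0035).

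Towards the distal end, *Cxadr* (78098377 to 78159153), the coxsackievirus and adenovirus receptor of cell junctions, was at 4.86, 4.18, 3.11 and 3.12 CPM in edited cultures and at 11.04, 11.96, 7.02 and 6.48 CPM in controls. It had the smallest adjusted p of all members, 0.00179 from edgeR's test with the block, at a log2 fold change of −1.24 (SE 0.13). *Bach1* (87495782 to 87530234), a repressor of heme oxygenase, was at 58.0, 55.4, 34.3 and 40.4 CPM against 77.9, 74.4, 41.9 and 47.3 CPM, lower within each pair although the groups overlap (−0.34, SE 0.071, adjusted p = 0.0425). *Slc5a3* (91854965 to 91884361) was at 102, 88.3, 135 and 168 CPM against 146, 151, 241 and 221 CPM (−0.63, SE 0.082, adjusted p = 0.00617). *Mrps6*, a protein of the mitochondrial ribosome, begins at the same position on the same strand and overlaps *Slc5a3*, so reads could not be told apart where they share sequence; it was at 68.8, 76.1, 95.2 and 93.5 CPM against 122, 119, 133 and 117 CPM (−0.57, SE 0.085, adjusted p = 0.0119).

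The members described next had the highest level of their windows and were also lower in the edited cultures, as were *Usp7* and *Naa50* above. *Hmgn1*, the highest of the most distal window, was not called in the cells with the block, and its values there are not given. *Eif4g1*, the scaffold of the translation initiation complex and the highest of all members, was at 724, 750, 1300.0 and 1315 CPM in edited cultures and at 785, 842, 1610.0 and 1367 CPM in controls, lower in each pair (−0.16, SE 0.065, adjusted p = 0.184 from edgeR's test with the block). *Cct8*, a subunit of the cytosolic chaperonin, was at 565, 540, 620 and 651 CPM against 650, 628, 889 and 745 CPM (−0.28, SE 0.073, adjusted p = 0.0727). *Ranbp1*, a partner of the Ran GTPase in nuclear transport, was at 328, 323, 383 and 397 CPM against 388, 372, 518 and 443 CPM (−0.26, adjusted p = 0.0745).

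*Tomm70a*, an import receptor of the mitochondrial outer membrane, was at 388, 385, 314 and 292 CPM against 463, 474, 414 and 307 CPM (−0.26, adjusted p = 0.0823 from edgeR's test with the block), and *Cggbp1*, which binds CGG repeats, was lower by 0.30 (adjusted p = 0.0446). *Rpl35a*, a ribosomal protein whose reads may be split with its processed copies, had a log2 fold change of −0.21 (adjusted p = 0.104), and *Hspa13*, a chaperone of the Hsp70 family, one of −0.21 (adjusted p = 0.166). In 6 of the 7 genes from *Eif4g1* to *Hspa13* the edited culture was below its control in each pair, and *Hspa13* was lower in 3 of 4 pairs.

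The largest falls went well beyond the shift of the chromosome. *Hes1* (29882134 to 29886643) was at 1.06, 0.752, 2.38 and 1.07 CPM in edited cultures and at 3.55, 3.67, 5.32 and 2.24 CPM in controls, a log2 fold change of −1.51 (SE 0.22, adjusted p = 0.00991 from edgeR's test with the block). *Vgll3* (65611923 to 65663369), a cofactor of TEAD transcription factors, was at 0.824, 0.452, 0.46 and 0.766 CPM against 1.39, 1.45, 1.17 and 2.00 CPM on 12 to 59 counts per culture (−1.27, SE 0.23, adjusted p = 0.0279). *Ets2* (95502847 to 95522095), an ETS family transcription factor, was at 67.1, 57.8, 13.4 and 14.97 CPM against 134, 128, 16.9 and 19.0 CPM. Cultures 1 and 2 of either group held several times the level of cultures 3 and 4, and the fall within pairs (−0.74, SE 0.14, adjusted p = 0.0416) was larger in pairs 1 and 2.

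With the block 84 members had a positive log2 fold change and 2 of them, both at low levels, were called higher. *Abi3bp* (56298185 to 56510576), an extracellular matrix protein, was at 5.84, 6.66, 0.767 and 1.37 CPM in edited cultures and at 2.63, 3.02, 0.284 and 0.746 CPM in controls, higher in each pair (1.12, SE 0.17, adjusted p = 0.0122 from edgeR's test with the block). *Abi3bp* overlaps another member on the opposite strand. So do *2610020C07Rik*, *Ube2l3*, *Ranbp1*, *Kpna1*, *Naa50*, *Tomm70a*, *Cxadr*, *Cct8*, *St3gal6* and *P3h2*. The sources used here give no strand setting for featureCounts, so reads of these genes may not be told apart from the other strand. *Tigit* (43469100 to 43484509), known as an inhibitory receptor of T and NK cells, was at 4.94, 4.25, 11.6 and 8.73 CPM against 3.25, 2.51, 7.93 and 8.07 CPM (0.48, SE 0.14, adjusted p = 0.0923). The 12 leukocyte markers together summed to 3.73 to 5.601 CPM in edited and 2.84 to 3.75 CPM in control cultures, with *Cd3e* and *Cd8a* at 0 counts in all 8, and their part in this rise was not tested.

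**Figure D4:**
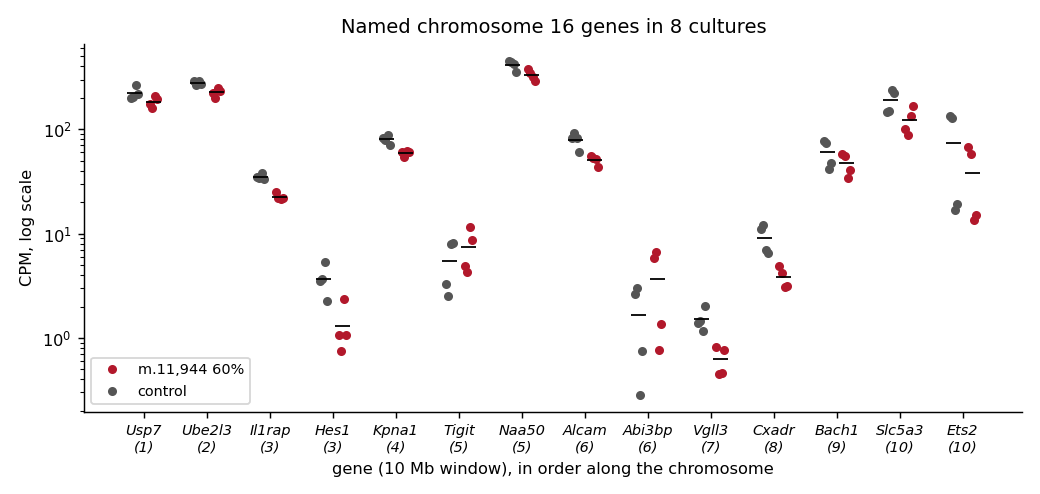
CPM (log axis) of 14 named genes in the 4 m.11,944 60% and 4 control cultures, in order along the chromosome with the 10 Mb window in brackets; points are cultures in numerical order from left to right and bars are group means. The 12 genes called lower lie in windows 1 to 10, and *Tigit* and *Abi3bp* are the 2 called higher.

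Read by function, most lists of chromosome 16 genes were shifted down with the chromosome, where the median of all genes tested was 0.0052 with the block. Of 16 transcription and chromatin factors, 15 had a negative log2 fold change (median −0.25) and 7 were called lower, among them *Hes1*, *Ets2*, *Bach1* and *Nrip1*, a nuclear receptor corepressor (26.1 ± 5.83 against 35.3 ± 9.40 CPM, SD, n = 4; −0.42, adjusted p = 0.0303 from edgeR's test). Of 15 mitochondrial proteins, 14 were below 0 (median −0.17) and 3 were called lower. *Opa1*, the dynamin-like GTPase of inner membrane fusion, was one of these at 91.6, 91.5, 85.4 and 85.5 CPM against 112, 124, 105 and 97.2 CPM (−0.30, adjusted p = 0.0506 from edgeR's test). Of 10 surface, matrix and adhesion genes 8 were below 0 (median −0.31), with 3 called lower.

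Other lists had medians nearer 0, apart from the last one given here, and no difference between lists was tested. Of 13 kinases and signaling genes, 10 were below 0 (median −0.11) and 1 was called lower, *Gsk3b*, a kinase of the Wnt and insulin pathways (−0.23, adjusted p = 0.0760 from edgeR's test with the block). Of 14 genes of interferon and immune signaling, 10 were below 0 (median −0.074) and 4 were called lower, including *Il1rap* and *Bcl6*, a repressor known from germinal center B cells (−0.42, adjusted p = 0.0854). The 13 genes of DNA replication and repair had a median of −0.019, with 8 below 0 and none called (without the block 9 were below 0, at a median of −0.061). The 54 members whose orthologs lie on human chromosome 21 had a median of −0.17 with 43 below 0 and 11 called lower, close to the chromosome as a whole.

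In tumors the expressed genes of chromosome 16 were lower in m.12,436 60% than in m.12,436 40% tumors, by less than in the cells, and the tumors of the groups overlapped. The 3 tumor comparisons share tumors and are given side by side. In a whole tumor, fewer cells of a type and less RNA per cell cannot be told apart. The shift of single tumors, set against the control tumors, ran from −0.055 to 0.025 in the 7 m.12,436 60% tumors (median −0.037), from −0.069 to 0.13 in the 7 m.12,436 40% tumors (median 0.052), and was −0.011, 0.0057, −0.041 and 0.037 in the 4 control tumors. Of 7 m.12,436 60% tumors 6 were below 0, and of 7 m.12,436 40% tumors 6 were above it. Tumor 7 of the m.12,436 40% group, at −0.069, was the lowest of all 18. Group means were −0.029 ± 0.029 (SD, n = 7), 0.047 ± 0.062 (SD, n = 7) and −0.0022 ± 0.032 (SD, n = 4).

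The difference between m.12,436 60% and 40% tumors was again spread along the chromosome. The median log2 fold change of the members was −0.09 and that of the other chromosomes −0.012, the lowest difference of the 20 chromosomes at −0.079 (−5.30% in linear terms). All 10 windows were below 0 relative to the other chromosomes, from −0.041 in window 7 to −0.13 in window 9, and the start position had a Spearman's rho of −0.0095 with the log2 fold change across the 365 members (Pearson's r −0.049). With 5 Mb windows the medians all lay below 0, from −0.16 to −0.0043. In the shifts of single tumors the group means differed by only −0.0057 in window 7. As in cells, 285 of 365 members (78.1%) were lower. Of the 257 windows elsewhere, 31 (12.1%) were at or below the highest of chromosome 16, so the tumor profile stood out less than that of the cells.

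Against control tumors the 2 mutant groups lay on opposite sides. In m.12,436 60% tumors the difference from the other chromosomes was −0.032 (rank 5 of 20 from the lowest), with 8 of 10 windows below 0 and 231 members (63.3%) lower; chromosomes 19, 8, 15 and 4 were lower, at −0.083, −0.078, −0.060 and −0.033. In m.12,436 40% tumors it was 0.055 (rank 19 of 20 from the lowest), with all 10 windows above 0, from 0.032 to 0.071, and 261 members (71.5%) higher; with the mean of a window's genes in place of the median, 1 of the 10 windows was below 0, at −0.024. The m.12,436 60% side was small: the group's mean shift, −0.029, lay within the single control tumors (−0.041 to 0.037). Over the alternative settings its difference ran from −0.045 (without control tumor 3) to −0.013 (leukocyte marker score as a covariate), with −0.014 for the replicate block. The m.12,436 40% difference ran from 0.038 (without control tumor 3) to 0.064 (without control tumor 4).

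**Figure D5:**
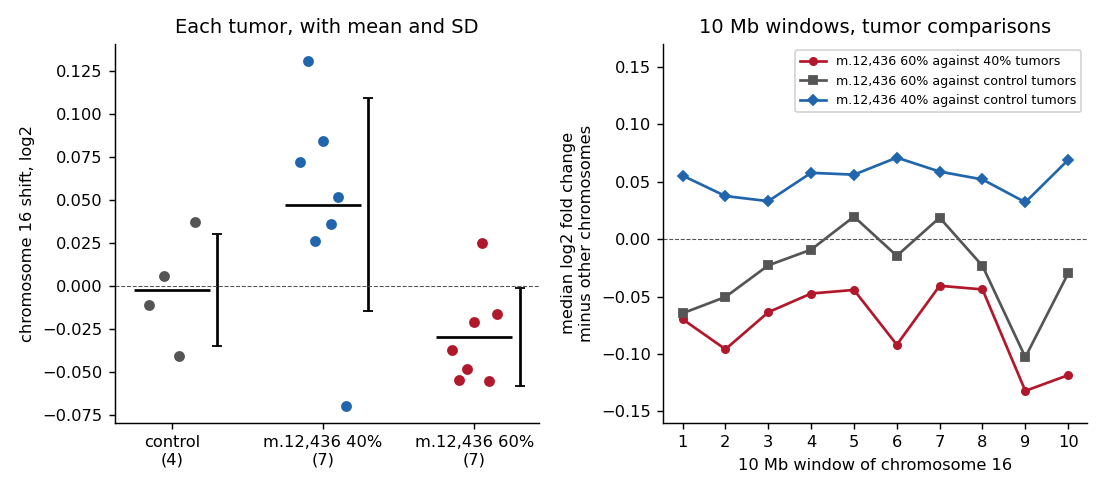
Left, the chromosome 16 shift (log2) of each of 18 tumors, with the group mean (horizontal bar) and SD (error bar); right, the median log2 fold change of each 10 Mb window minus that of the other chromosomes in the 3 comparisons, which share tumors. The groups overlap; all 10 windows lie below 0 for m.12,436 60% against 40% tumors and above 0 for m.12,436 40% against control tumors.

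The summed RNA of leukocyte markers differed between these groups, with overlapping ranges. In m.12,436 60% against 40% tumors 9 of 12 markers were higher, 3 of them called. In m.12,436 60% against control tumors 9 were higher, 2 of them called. In m.12,436 40% against control tumors 5 of 12 were higher and 0 called. The 12 leukocyte markers summed to 1464 to 2178 CPM in m.12,436 60% tumors (median 1982), 1116 to 1574 CPM in m.12,436 40% tumors (median 1375) and 1418 to 1701 CPM in control tumors (median 1548), with all 12 at 1 CPM or more in each group. With the leukocyte score as a covariate, the median of the members in m.12,436 60% against 40% tumors was −0.059, the difference from the other chromosomes −0.057, and none of the members was called. Against control tumors it was −0.018 for m.12,436 60% and 0.039 for m.12,436 40% tumors with the covariate. The 5 skeletal muscle markers summed to 0.367 to 301.9 CPM in m.12,436 60% tumors (median 0.724) and 34.6 to 281.6 CPM in m.12,436 40% tumors (median 132.5), overlapping ranges in which none of the 5 was called, and their part in the shift was not tested.

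Few members passed the test in tumors. Of the 365, 17 (4.66%) were called lower and 1 (0.274%) higher in m.12,436 60% against 40% tumors by edgeR's quasi-likelihood test with Benjamini-Hochberg adjustment, where 0.993% and 0.814% of the 16213 genes tested were called. Against control tumors, 6 (1.64%) were called lower and 1 (0.274%) higher in m.12,436 60% tumors, where 1.34% and 0.962% of all genes were called, so the members were near the background. None of these 7 calls held in all 4 fits that left out 1 control tumor: *Ppl*, *Fam43a* and *St3gal6* held in 3, *P3h2*, *Eva1c* and *Tfap4* (outside the naming rule and named after its values were seen) in 2, and *Mb21d2* in 0, and no member was called without control tumor 3. In m.12,436 40% tumors no member was called by edgeR, as for all genes tested (0.0% lower, 0.0% higher), and none by DESeq2, which called 5 of the 16213 genes. By edgeR, 3 members (0.82%) were lower and 19 (5.2%) higher at an unadjusted p under 0.05. Of the 16213 genes, 825 were under it in either direction. With both directions together the members were near this background, but most of theirs were higher. The background was not split by direction. Leaving out single tumors moved the 18 calls between m.12,436 60% and 40% tumors to between 4 and 28, the fewest without m.12,436 60% tumor 1 and the most without m.12,436 40% tumor 7. *Ppl*, *Fam43a* and *Mb21d2* were called in all 14 of these fits.

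*Ppl* (chromosome 16, 4904155 to 4950377), periplakin of desmosomes and the cornified envelope, fell most. It ran from 0.682 to 1.57 CPM in m.12,436 60% tumors (median 0.769) and from 0.873 to 7.34 CPM in m.12,436 40% tumors (median 3.73), and was at 4.13, 3.70, 5.23 and 2.33 CPM in control tumors. All 7 m.12,436 60% tumors were below all 4 control tumors, with log2 fold changes of −2.0 against m.12,436 40% (SE 0.36, adjusted p = 0.0132 from edgeR's test) and −1.995 against control tumors (SE 0.39, adjusted p = 0.0205). In m.11,944 60% cells it was also lower (−0.90, adjusted p = 0.0889 with the block).

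*Fam43a* (30418541 to 30421615), whose role is little known, ran from 14.9 to 22.4 CPM in m.12,436 60% tumors (median 20.9) and from 22.4 to 36.2 CPM in m.12,436 40% tumors (median 29.0), and was at 30.5, 30.4, 33.0 and 27.2 CPM in control tumors. The log2 fold changes were −0.60 against m.12,436 40% (SE 0.11, adjusted p = 0.0156 from edgeR's test) and −0.63 against control tumors (SE 0.13, adjusted p = 0.0225). *Mb21d2* (28644928 to 28748914) ran from 6.64 to 9.44 CPM, from 9.43 to 13.9 CPM, and was at 9.97, 11.03, 10.1 and 10.9 CPM in the same order of groups. It was lower in m.12,436 60% tumors by 0.45 against m.12,436 40% tumors (adjusted p = 0.0245) and by 0.38 against control tumors (adjusted p = 0.0924).

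*Il1rap*, which had fallen in the cells, ran from 35.9 to 44.2 CPM in m.12,436 60% tumors (median 38.5), from 42.4 to 66.9 CPM in m.12,436 40% tumors (median 50.9), and was at 39.9, 44.4, 58.8 and 55.8 CPM in control tumors. The log2 fold change against m.12,436 40% tumors was −0.43 (SE 0.098, adjusted p = 0.0470 from edgeR's test), and against control tumors −0.36 (adjusted p = 0.134). *St3gal6* (58286438 to 58344780), a sialyltransferase, ran from 13.4 to 15.3 CPM in m.12,436 60% tumors, all below the 4 control tumors at 17.3, 19.5, 24.1 and 22.5 CPM (−0.57, SE 0.11, adjusted p = 0.0176), and from 14.01 to 22.5 CPM in m.12,436 40% tumors (−0.40, adjusted p = 0.0593). Both genes were therefore called lower in the cells and in m.12,436 60% against 40% tumors.

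*Fetub* (22736127 to 22758528), which encodes the protease inhibitor fetuin-B, and *Eva1c* (90623607 to 90701997), a heparin-binding membrane protein, were low in tumors. *Fetub* ran from 0.262 to 0.769 CPM in m.12,436 60% and from 0.613 to 2.56 CPM in m.12,436 40% tumors (−1.35, SE 0.32, adjusted p = 0.0563 from edgeR's test). *Eva1c* ran from 0.427 to 0.723 CPM and from 0.652 to 2.86 CPM (−1.30, SE 0.30, adjusted p = 0.0472). *Trap1* (3856215 to 3895716), the mitochondrial Hsp90, ran from 105 to 120 CPM in m.12,436 60% tumors, all below the m.12,436 40% tumors at 123 to 171 CPM (−0.27, SE 0.065, adjusted p = 0.0575).

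*P3h2* (25778036 to 25924641), a prolyl hydroxylase of basement membrane collagen, was the only member called higher. It ran from 11.3 to 24.5 CPM in m.12,436 60% tumors (median 16.4) and from 6.30 to 14.3 CPM in m.12,436 40% tumors (median 11.4), and was at 9.43, 10.7, 9.38 and 11.6 CPM in control tumors. The log2 fold changes were 0.61 (SE 0.15, adjusted p = 0.0698 from edgeR's test) and 0.71 (SE 0.18, adjusted p = 0.0704). In the cells its direction was the opposite, at −0.28 (adjusted p = 0.119 with the block).

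In m.12,436 60% against 40% tumors, where the median of all genes tested was −0.0036, 14 of 15 mitochondrial proteins (median −0.14) and 12 of 13 genes of DNA replication and repair (median −0.14) were lower, with 1 call in each list, *Trap1* and *Hmgn1* (−0.20, adjusted p = 0.0948 from edgeR's test), a nucleosome-binding protein. Of 16 transcription and chromatin factors, 11 were lower (median −0.047) and none was called. Genes of interferon and immune signaling lay on the other side, with 4 of 14 lower, 10 higher and a median of 0.044, beside the leukocyte sums given above; *Il1rap* was the 1 call of that list. Kinases (median −0.026, 9 of 13 lower, with *Itsn1*, an endocytic scaffold, called at −0.26 and adjusted p = 0.0742) and surface, matrix and adhesion genes (median −0.036, 5 of 10 lower) stayed near 0, and the 54 members with orthologs on human chromosome 21 had a median of −0.13 with 43 lower and 3 called.

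The cells and the tumors share no sample, and carry different mutations. Of the 365 members, 230 (63.0%) were lower both in m.11,944 60% against control cells (replicate block) and in m.12,436 60% against 40% tumors, beside 29.7% of the 11041 genes of other chromosomes tested in both, where 281 and 285 members were lower in each. Across the 365 members the log2 fold changes had a Pearson's r of 0.22 and a Spearman's rho of 0.24, and across the genes of other chromosomes 0.22 and 0.19. The share lower in both follows in large part from the share lower in each comparison and is not read as a relation between them.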

How the data were processed

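RNA-seq was done on B78-D14 cells and tumor fragments. The authors deposited 1 table of gene counts, aligned to GRCm39 with STAR and counted with featureCounts on an Ensembl annotation, as raw counts that were not normalised. Of its 47 columns, 26 could be tied to samples used here, and 21 were not used. Genes were placed with the GENCODE annotation on GRCm39, in which 731 of 56748 genes were not found. Members and lists were chosen with earlier results of these data known. CPM were scaled by TMM, and shifts used log2 CPM with a prior count of 2. Groups were compared with edgeR 4.0.16 (quasi-likelihood test, filterByExpr, R 4.3.3) over all genes, cells and tumors apart and the 18 tumors in 1 fit, calling Benjamini-Hochberg adjusted p under 0.1. Script tests on simulated counts were run first. In the cells, same-numbered cultures deviated from their group means with correlations of 0.718 to 0.832, best within the number in 3 of 4 pairs. The numbers are treated as pairs, and a fit with the number as a block is given beside the main one. Alternatives used limma 3.58.1, DESeq2 1.42.0, other filters, windows and covariates. Genes were named as the 5 largest called rises or falls of a comparison, the smallest p and the highest level of each window, or the 2 smallest p of each of 7 lists. Fold changes of low genes carry the most counting error, and depth was 16475735 to 36173502 counts per library.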

Additional observations from a re-analysis of the deposited data

Results flagged for a closer look

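In groups of 4 to 7 samples, a sample was singled out where its gap to the nearest other sample took up an unusually large part of the range of its group (Dixon's test). Of 140 groups of values, 9 had such a sample, and chance gives about 1 in 20. Among the cells, control culture 3 had a chromosome 16 shift of 0.0432, with the nearest other control at −0.0113, and m.11,944 60% culture 1 had *Il1rap* at 25.2 CPM, with the next at 22.0 CPM. Among the m.12,436 60% tumors, tumor 5 stood above the others in window 4 (0.0956, next 0.00761), window 5 (0.153, next 0.02) and window 7 (0.333, next 0.0826), and tumor 7 in window 9 (0.0716, next −0.0702). Tumor 2 of the m.12,436 40% group was high in window 9 (0.268, next 0.097) and in *Trap1* (171 CPM, next 143 CPM). Control tumor 4 was high in window 5 (0.121, next −0.0111).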

How the results depend on the processing

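The median log2 fold change of the members kept its sign in all comparisons under every alternative run. In the cells it ran from −0.153 to −0.110 when single cultures were left out, nearest 0 without control culture 3, and with the replicate block from −0.145 to −0.116 without single pairs, nearest 0 without pair 3. With the replicate block it was −0.132 in the cells, −0.0846 for m.12,436 60% against 40%, −0.0266 for m.12,436 60% against control and 0.0579 for m.12,436 40% against control tumors. Leaving out single tumors gave −0.112 to −0.0685, −0.0578 to −0.0229 (control tumors only) and 0.0445 to 0.0739 (control tumors only) in the same order.

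Counts of called members moved more. In the cells they were 7 by DESeq2, 64 with the replicate block and 6 to 86 with the block and without single pairs (42 without pair 3), and stayed at 0 without single cultures. Between m.12,436 60% and 40% tumors the 18 calls became 39 by DESeq2, 11 with no filter on low counts, 9 with the replicate block, 0 with the leukocyte score as a covariate, 5 at an adjusted p under 0.05 and 4 to 28 without single tumors. Between m.12,436 60% and control tumors the 7 calls became 19 by DESeq2, 3 with the replicate block, 4 at a mean CPM of 5 or more, 22 with only the 2 groups in the fit, 3 with the leukocyte score, 3 at an adjusted p under 0.05, and 0 (without control tumor 3) to 12 (without control tumor 4). The cause was not tested. With means in place of medians, 1 of 10 windows turned below 0 in m.12,436 40% against control tumors (−0.0243). The tumors share only a number: same-numbered tumors deviated with mean correlations of −0.0264, −0.156 and −0.00582, so their block is given here alone. Windows 7 to 9, with 8 to 11 members, are the least precise, and for genes near 1 CPM depth limits what can be seen.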
